A study of Homo sapiens with 12 samples.

Results

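The genes described are 35 members of the homologous recombination and Fanconi anemia pathways, chosen by name for their known roles in DNA repair and found in the files by symbol. They are 35 of the 44147 features measured, and 34 of them were among the 23045 genes that passed the low-count filter. The gene left out by the filter was RMI2, with 0 to 6 exonic reads per library and 38 reads in all 12 libraries.

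RNA-seq was carried out on CCRF-CEM, an established human T-lymphoblastic leukemia line, in SLFN11-knockout cells and in the SLFN11-positive parent. Each line was treated with prexasertib, a clinical inhibitor of the checkpoint kinase CHK1, at 100 nM for 6 h, or with DMSO, the vehicle. The design sets each treated transcriptome against the basal transcriptome of the same line. The 4 groups were knockout cells labelled prexasertib, knockout cells labelled DMSO, parent cells labelled prexasertib and parent cells labelled DMSO, with 3 libraries each. The labels do not say whether the knockout line is 1 clone, nor whether replicates were grown apart. The p-values therefore reflect variation among these libraries only, and it may be technical.

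The treatment labels conflict in 12 of 12 records: the title names a library whose file is attached to the opposite treatment in that line. Groups follow the record to which a file is attached, and are named with the word labelled for that reason. Should the titles' library names be right, every treatment difference and every difference between the lines in the treatment response changes sign, and the line comparison among libraries labelled prexasertib becomes that among libraries labelled DMSO, and the reverse.

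Homologous recombination repairs a double-strand break from an intact sister copy. The MRE11-RAD50-NBN complex, with CtIP and EXO1, resects the ends; BRCA1 with BARD1, then PALB2 and BRCA2, prepare the single strand for pairing with the intact copy; and the resulting joint molecules are dissolved or cut. The Fanconi pathway acts at DNA crosslinks: a core complex with the enzymes FANCL and UBE2T attaches ubiquitin to FANCD2 and FANCI, which opens the way for nucleases and for recombination. Transcription of many of these genes is known to vary over the cell cycle.

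Exonic reads summed to 47887791 to 77548202 per library. Reads of SLFN11, the targeted gene, were still present in the knockout line, at 65.9 to 90.7 CPM, reads scaled to a common library size, against 91.2 to 119 CPM in the parent. The difference was -0.41 on the log2 scale among libraries labelled prexasertib (edgeR adjusted p = 5.5e-07) and -0.51 among those labelled DMSO (edgeR adjusted p = 6e-09), and RNA reads of the gene do not show which part was altered. All 12 T-lymphoblast markers averaged 1 CPM or more, 2 of 5 B-cell markers did (CD79A and CD79B, with MS4A1 at 0), and none of 4 myeloid, 3 erythroid and 4 fibroblast markers found averaged 1 CPM. Of 4 epithelial markers, EPCAM and KRT8 did, and their list summed to 10.4 to 12 CPM in knockout libraries against 2.24 to 3.63 CPM in parent libraries; their part in the line differences was not tested. The library parent labelled prexasertib 1 stood apart, with 30.27% of its gene reads in introns against 23.93% to 26.37% in the other 11. In bulk RNA, fewer cells in a state and less RNA per cell cannot be told apart.

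Promoter windows of RefSeq (GRCh38.p14), 250 bases before to 50 bases after a start site, were found for 31 members, 1 of them (MRE11A) by its present symbol, and were searched on both strands for 3 motifs of cell-cycle genes. An E2F core, taken as TTCGCGC or one of the related forms TTGGCGC, and also TTCCCGC, and also TTGCCGC, was present for 18 of the 31 members (58.1%), against 15.3% of 27305 genes with a window. Counted only before the start it was present for 10 members (32.3%), against 13% of genes. A CHR element, searched as TTTGAA and in the other form as TTCGAA, was present for 3 members (9.68%), against 19.5% of genes, and a CCAAT box (CCAAT) for 13 (41.9%), against 39.7%. The bases before the start are shown for UBE2T and RAD51AP1, which were lower in the parent labelled prexasertib, and for RAD54L and FANCC, which were higher in both lines, with every match on either strand in capitals and no run of capitals longer than 1 match. RAD54L and FANCC each had a further start site downstream, whose window is not shown. Before that start RAD54L had 1 E2F and 2 CCAAT matches, and FANCC had 1 E2F and 0 CHR matches. A match is a description of letters and not a bound site.
UBE2T, chr1:202341937-202342186, minus strand, 1 CHR and 2 CCAAT matches: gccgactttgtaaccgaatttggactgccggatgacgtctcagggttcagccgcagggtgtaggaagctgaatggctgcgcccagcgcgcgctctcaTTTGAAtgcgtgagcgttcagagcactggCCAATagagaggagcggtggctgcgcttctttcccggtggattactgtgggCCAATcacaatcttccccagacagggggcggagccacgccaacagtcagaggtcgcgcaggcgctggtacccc
RAD51AP1, chr12:4538640-4538889, plus strand, 1 E2F and 1 CCAAT match: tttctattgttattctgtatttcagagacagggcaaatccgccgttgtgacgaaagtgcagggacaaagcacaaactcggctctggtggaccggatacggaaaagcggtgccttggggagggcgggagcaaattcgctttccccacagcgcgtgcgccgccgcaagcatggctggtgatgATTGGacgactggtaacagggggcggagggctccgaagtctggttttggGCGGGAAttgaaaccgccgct
RAD54L, chr1:46247438-46247687, plus strand, 1 E2F and 1 CCAAT match: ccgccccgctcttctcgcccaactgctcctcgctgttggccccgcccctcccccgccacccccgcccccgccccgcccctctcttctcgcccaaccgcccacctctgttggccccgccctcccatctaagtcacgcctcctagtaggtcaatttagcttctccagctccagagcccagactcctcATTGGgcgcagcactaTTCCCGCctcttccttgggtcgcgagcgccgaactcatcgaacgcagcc
FANCC, chr9:95317710-95317959, minus strand, 2 E2F and 1 CHR match: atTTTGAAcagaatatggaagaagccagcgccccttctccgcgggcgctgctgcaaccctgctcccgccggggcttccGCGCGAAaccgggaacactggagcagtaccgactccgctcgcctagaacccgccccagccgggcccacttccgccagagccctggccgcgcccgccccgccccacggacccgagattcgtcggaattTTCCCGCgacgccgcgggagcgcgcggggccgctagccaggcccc
The CHR match was present for BRIP1, FANCC and UBE2T, of which BRIP1 and UBE2T were lower and FANCC was higher in the parent labelled prexasertib.

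The authors' TPM, a level per transcript length, placed 33 of the 35 members above the median of the tested genes (3.21 TPM), and the median member averaged 12.6 TPM over the 12 libraries. UBE2T, the ubiquitin-conjugating enzyme of the pathway, was the most abundant at a mean of 82.2 TPM, followed by FANCI at 37.3 TPM and RAD51AP1 at 31.1 TPM. UBE2T ranged from 52.5 to 103 TPM over libraries, above the whole range of FANCI, 26.9 to 50.5 TPM, which overlapped that of RAD51AP1, 27 to 35.8 TPM. The next places, FANCG at 22.9 TPM (17.5 to 27.5) and FANCD2 at 22.4 TPM (16.6 to 27.1), overlapped as well. The lowest levels were those of SLX4 at 3.95 TPM, FANCC at 2.97 TPM and RMI2 at 0.0236 TPM, and 22 members reached 10 TPM. For 6 members fewer than 50% of the exonic reads lay outside other genes: BRCC3 (0%, overlapped by MTCP1), RAD51D (0.126%, RAD51L3-RFFL), EME1 (1.07%, LRRC59), XRCC3 (35.6%, KLC1), RAD54B (40.5%, FSBP) and RAD54L (42.3%, LRRC41). Their values, and that of FANCD2, which has partial copies in the genome, are uncertain because the authors' counting could mix the genes.

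**Figure D1:**
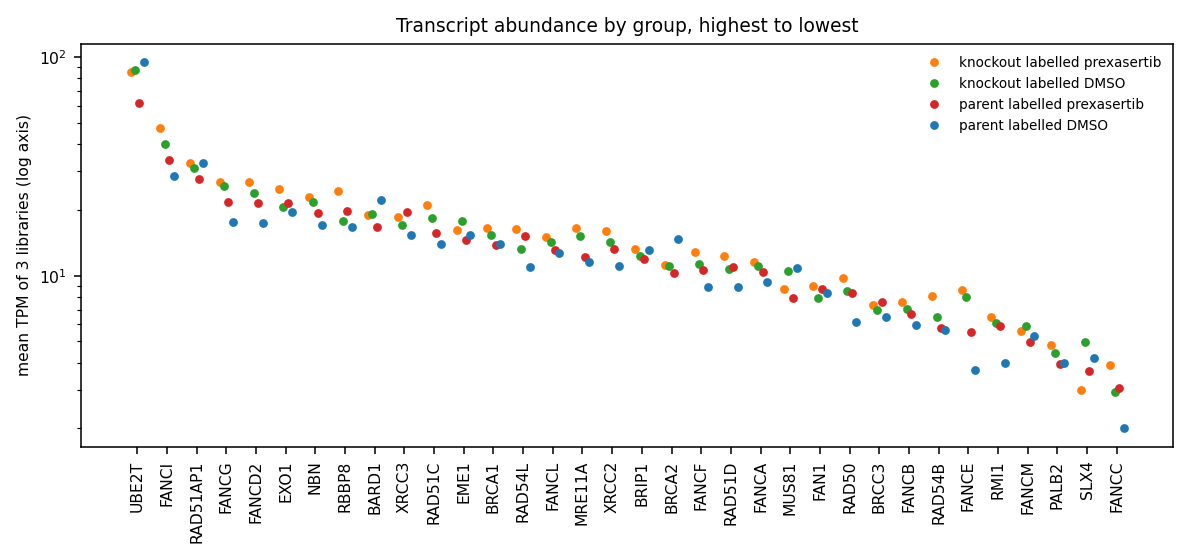
Mean TPM of 3 libraries (log axis) for each of the 34 members with a tested level, ordered from the highest mean to the lowest, with 1 point per group. UBE2T stands above all others, between 61.9 TPM in parent cells labelled prexasertib and 94.7 TPM in parent cells labelled DMSO, and FANCC has the lowest mean over all libraries, with group means of 2 to 3.89 TPM; RMI2 is not drawn.

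The first question was how the members responded to the labelled treatment in each line. In knockout cells 8 of 34 tested members were higher and 2 lower in libraries labelled prexasertib than in those labelled DMSO at an adjusted p of at most 0.05. Of all tested genes, 6.11% were called higher and 6.83% lower in that comparison. In parent cells 7 members were higher and 10 lower, beside 18.2% of all genes called higher and 18.2% called lower. The median log2 fold change of the members was 0.10 in knockout cells, where that of all genes was 0.00, and 0.01 in parent cells, where that of all genes was 0.04. FANCC, FANCD2 and RAD54L were higher in both lines and MUS81 and SLX4 lower in both. No member was called in opposite directions, 8 were called lower in the parent without a call in the knockout, and 12 were called in neither. The shares of all genes with these patterns were not counted. EME1 and FANCM, among the 8, had no called difference in response between the lines. Without parent labelled DMSO 1, or without parent labelled DMSO 2, 4 members were higher in the parent, and without the library that stood apart 10 were higher and 10 lower. With only the 2 compared groups in the fit, 14 members were higher in the knockout and 4 in the parent. The shares of all genes called in such refits were not counted, so these shifts cannot be read as particular to the members. The authors' TPM changed the parent's split to 15 higher and 5 lower with a pseudocount of 1, and that of the knockout to 6 and 2. The median of all genes in the parent was 0.09 on that scale, and that of the members exceeded it by 0.04. With a pseudocount of 0.1 the parent medians were 0.16 for all genes and 0.15 for the members.

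**Figure D2:**
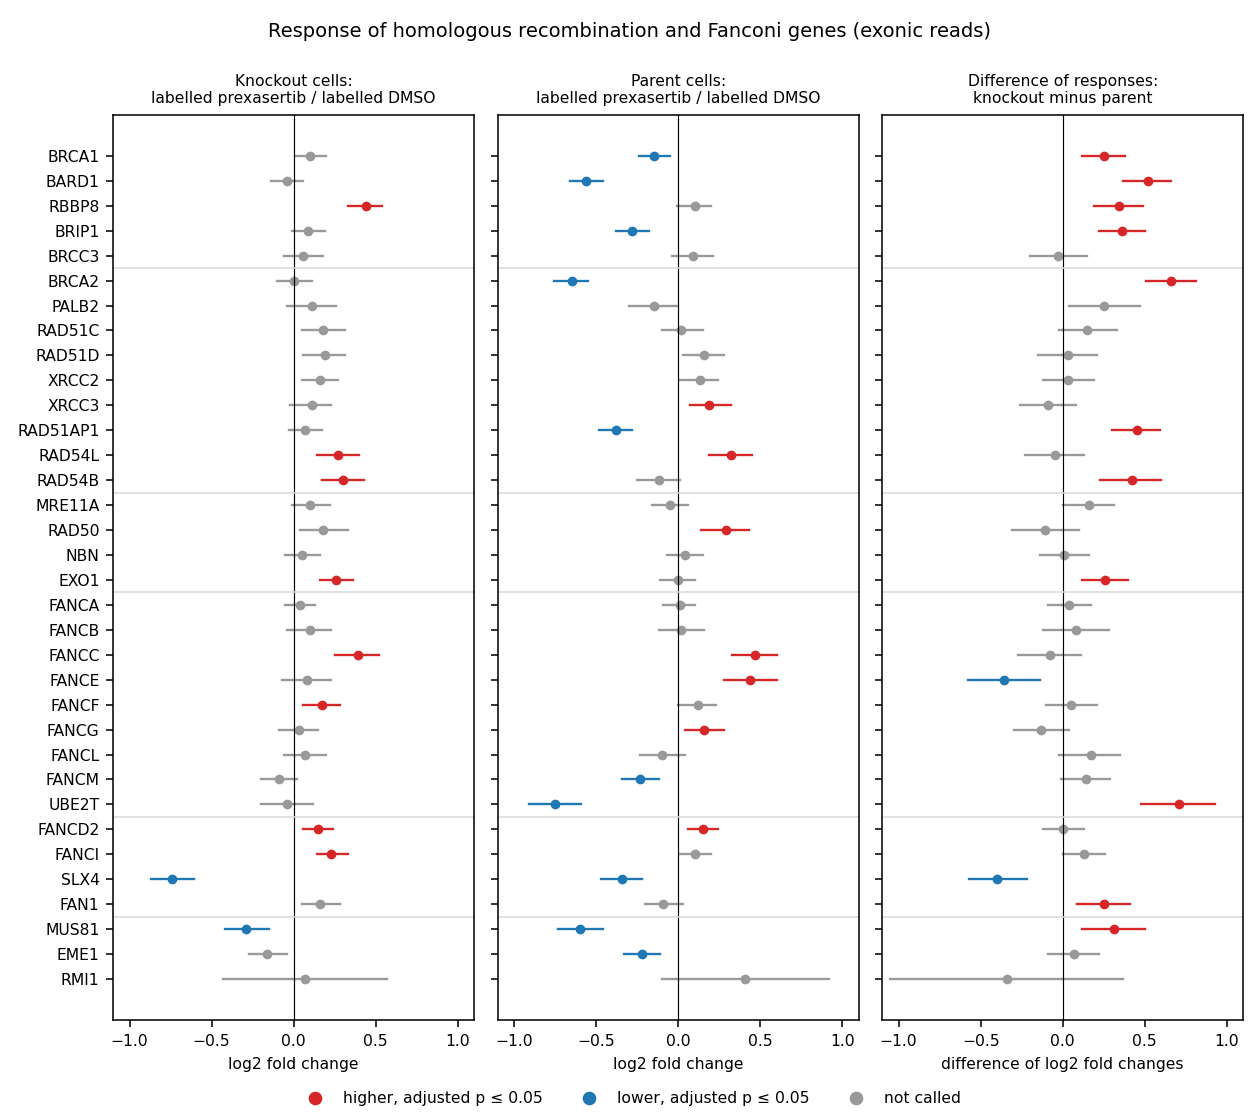
Log2 fold changes of 34 members in exonic reads, labelled prexasertib over labelled DMSO, for knockout cells and parent cells, and the difference of the lines' responses; points are estimates and lines 95% intervals from the edgeR standard error, red for called higher, blue for called lower and grey for not called. The knockout panel holds 8 red and 2 blue points, the parent panel 7 red and 10 blue, and the difference panel 11 red and 2 blue.

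The second question was whether the response differed between the lines. The difference, the knockout's log2 response minus the parent's, was above 0 for 11 members and below 0 for 2, where 9.53% of all genes were called above 0 and 7.32% below. The median was 0.10 over the members and -0.03 over all genes. The comparison shares its libraries with the 4 others, so it is no separate evidence. With the authors' TPM, pseudocount 1, the counts were 4 above and 3 below 0 and the member median was -0.02, against -0.08 for all genes; the 4 were BARD1, BRCA2, RAD51AP1 and UBE2T, and the 3 were FANCE, FANCG and SLX4.

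Among BRCA1 and its partners, 3 of 5 were lower in the parent labelled prexasertib (BRCA1, BARD1, BRIP1) and 1 was higher in the knockout (RBBP8). In the parent, the authors' TPM with a pseudocount of 1 gave 2 of the 5 higher and 1 lower, and the calls of BRCA1 and BRIP1 were lost. BARD1, the ring-finger partner of BRCA1 (hg19 chr2:215590370-215674428), had 86.2, 87.4 and 95.8 CPM in knockout libraries labelled prexasertib and 92.0, 93.1 and 92.0 CPM in those labelled DMSO. In parent libraries it had 83.8, 91.3 and 88.7 CPM labelled prexasertib and 134, 125 and 129 CPM labelled DMSO. Only the parent labelled DMSO stood above the other 3 groups, with no overlap. The log2 fold change was -0.04 ± 0.05 (SE) in the knockout and -0.56 ± 0.05 in the parent (edgeR adjusted p = 2.8e-09), a difference of 0.52 (edgeR adjusted p = 1.3e-05).

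BRIP1, a helicase that binds BRCA1, had 82.4, 80.9 and 84.1 CPM in the knockout labelled prexasertib and 80.0, 76.8 and 76.3 CPM labelled DMSO, with 80.7, 86.3 and 81.5 CPM in the parent labelled prexasertib and 102, 94.9 and 104 CPM labelled DMSO. Its high group was again the parent labelled DMSO, and the responses differed by 0.36 (edgeR adjusted p = 0.00068). BRCA1 itself moved less, with a log2 fold change of 0.10 in the knockout, which was not called, and of -0.15 in the parent (edgeR adjusted p = 0.015); the difference was 0.25. RBBP8, which encodes the resection factor CtIP, had 93.3, 95 and 98.9 CPM in the knockout labelled prexasertib against 70.1, 69.5 and 72.7 CPM labelled DMSO. It rose there by 0.44 ± 0.05 on the log2 scale (edgeR adjusted p = 1.8e-06) without overlap, while the parent value of 0.10 was not called and its groups overlapped. BRCC3, a deubiquitinase of the BRCA1-A complex, was not called in either line, and its reads could not be separated from those of MTCP1.

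Among the 9 genes of strand pairing, BRCA2 included, 2 were higher and 0 lower in the knockout, and 2 were higher and 2 lower in the parent. BRCA2, a mediator of recombination on single-stranded DNA (hg19 chr13:32889611-32973805), had 97.6, 97.1 and 103 CPM in the knockout labelled prexasertib and 99.2, 99.1 and 98.1 CPM labelled DMSO. In the parent it had 107, 100 and 96.5 CPM labelled prexasertib against 170, 149 and 159 CPM labelled DMSO. The other 3 of the 4 groups lay between 96.5 and 107 CPM and the parent labelled DMSO lay wholly above them. The log2 fold change was 0.00 ± 0.05 in the knockout and -0.65 ± 0.05 in the parent (edgeR adjusted p = 2.6e-10), with a difference of 0.66 (edgeR adjusted p = 5.3e-07).

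RAD51AP1, an accessory protein of strand pairing (hg19 chr12:4647950-4669214) whose promoter is shown above, had 62.3, 64.7 and 64.8 CPM in the knockout labelled prexasertib and 59.6, 61.0 and 62.2 CPM labelled DMSO. In the parent it had 57.0, 61.5 and 60.2 CPM labelled prexasertib against 80.9, 73.0 and 78.5 CPM labelled DMSO. The parent groups did not overlap, and RAD51AP1 fell by 0.38 there (log2, edgeR adjusted p = 1.7e-06), with a difference between the lines of 0.45. RAD54L, a motor protein that acts on the DNA duplex, had 39.9, 41.9 and 38.4 CPM in the knockout labelled prexasertib against 32.6, 33.4 and 33.5 CPM labelled DMSO, and 46.9, 37.2 and 40 CPM in the parent labelled prexasertib against 33.1, 33.4 and 32.9 CPM labelled DMSO. It was higher without overlap in both lines, by 0.27 (edgeR adjusted p = 0.0058) and 0.32 (edgeR adjusted p = 0.00035) on the log2 scale. The parent value was 0.19 without the library that stood apart, and the knockout call was lost with the authors' TPM.

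Its relative RAD54B was higher in the knockout labelled prexasertib, by 0.30 (edgeR adjusted p = 0.0025), but not with all reads of the gene counted; the parent value of -0.12 was not called. XRCC3, a subunit of a recombination mediator complex, was called in the parent at 0.19, and 0.11 in the knockout was not called. The parent call was lost with all reads of the gene counted, without parent labelled prexasertib 3 and without parent labelled DMSO 1. The mediator subunits RAD51C, RAD51D and XRCC2 and the BRCA2 partner PALB2 were called in neither line, with log2 fold changes of 0.11 to 0.19 in the knockout and -0.15 to 0.16 in the parent. BRCA2, RAD51AP1 and RAD54B differed in response between the lines, RAD54B not with all reads of the gene or the authors' TPM.

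Of 4 end-resection genes, 1 was higher in each line and 0 were lower. RAD50, the ATPase of the nuclease complex, was called in the parent, with 68.5, 53 and 53.1 CPM labelled prexasertib against 48.7, 45.7 and 48.6 CPM labelled DMSO; the highest value came from the library that stood apart. Its log2 fold change was 0.18 in the knockout, not called, and 0.29 in the parent (edgeR adjusted p = 0.0037), or 0.13 without that library (edgeR adjusted p = 0.037). The parent call was lost with only the compared groups in the fit (edgeR adjusted p = 0.051) and without parent labelled DMSO 2 (edgeR adjusted p = 0.097). EXO1, the long-range resection exonuclease, had 79.7, 79.9 and 81.7 CPM in the knockout labelled prexasertib against 68.5, 66.0 and 67.3 CPM labelled DMSO. It rose there by 0.26 (edgeR adjusted p = 0.001) without overlap, the parent value was 0.00, and the lines differed by 0.26 (edgeR adjusted p = 0.013). The call of that difference was lost with the authors' TPM. MRE11A, the nuclease, and NBN, its adaptor, were called in neither line.

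Of 9 genes of the Fanconi core complex and its ubiquitin enzymes, 2 were higher and 0 lower in the knockout, and 3 were higher and 2 lower in the parent. UBE2T (hg19 chr1:202300785-202311108) had 69.4, 72.3 and 71.9 CPM in the knockout labelled prexasertib and 72.0, 73.1 and 74.8 CPM labelled DMSO. In the parent it had 46.9, 62.3 and 63.4 CPM labelled prexasertib against 100, 91.5 and 98.5 CPM labelled DMSO. The 2 parent groups lay below and above all knockout libraries, with the lowest value in the library that stood apart. The log2 fold change was -0.04 ± 0.08 in the knockout and -0.75 ± 0.08 in the parent (edgeR adjusted p = 1e-06; -0.65 without that library). The difference of 0.71 was the highest of the members in exonic reads (edgeR adjusted p = 0.00032).

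FANCC, a core subunit (hg19 chr9:97861336-98079991), had 21.4 CPM in each of the 3 knockout libraries labelled prexasertib against 16.8, 15.9 and 16.3 CPM labelled DMSO, and 20.4, 17.4 and 18.1 CPM in the parent labelled prexasertib against 13.7, 13.5 and 13.3 CPM labelled DMSO. It was higher without overlap in both lines, by 0.39 (edgeR adjusted p = 0.00022) and 0.47 (edgeR adjusted p = 4.5e-06), and the difference of -0.08 was not called, with a 95% interval from -0.27 to 0.11. FANCE, a core subunit that contacts FANCD2 (hg19 chr6:35420138-35434880), had 17.8, 17.5 and 16.2 CPM in the knockout labelled prexasertib and a mean of 16.2 ± 0.906 CPM labelled DMSO (SD, n = 3), against 11.7, 12.7 and 12.5 CPM in the parent labelled prexasertib and 8.17, 9.77 and 9.39 CPM labelled DMSO. Every knockout library exceeded every parent library, the knockout groups overlapped and the parent groups did not.

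FANCE rose by 0.44 in the parent (edgeR adjusted p = 0.00011), 0.08 in the knockout was not called, and the difference was -0.36 (edgeR adjusted p = 0.029), a call lost when any of 7 of the 12 libraries was left out. FANCM, a translocase that anchors the complex, fell by 0.23 in the parent (edgeR adjusted p = 0.0017), and -0.09 in the knockout was not called; the parent call was lost with the authors' TPM. FANCF in the knockout (0.17) and FANCG in the parent (0.16) lay at the threshold, and each call was lost under 10 alternatives. FANCA, FANCB and FANCL, the ubiquitin ligase, were called in neither line, with values between -0.10 and 0.10.

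FANCD2 and FANCI form the pair that receives ubiquitin. FANCD2 was called in both lines, at 0.15 in the knockout (edgeR adjusted p = 0.028) and 0.15 in the parent (edgeR adjusted p = 0.013), and these calls were lost under 7 and 6 alternatives. FANCI had 273, 273 and 293 CPM in the knockout labelled prexasertib against 238, 239 and 238 CPM labelled DMSO; it rose by 0.23 there (edgeR adjusted p = 0.0016), and the parent value of 0.10 was not called. Neither difference in response was called, with 95% intervals of -0.12 to 0.13 for FANCD2 and 0.00 to 0.26 for FANCI.

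SLX4, the scaffold of crosslink nucleases (hg19 chr16:3631182-3661599), had 20.9, 19.8 and 19.8 CPM in the knockout labelled prexasertib against 33.6, 34.5 and 32.8 CPM labelled DMSO. In the parent it had 29.9, 24.6 and 27.5 CPM labelled prexasertib against 34.0, 34.9 and 35.1 CPM labelled DMSO. The groups labelled DMSO overlapped, and the knockout labelled prexasertib was the lowest group by itself. SLX4 fell by 0.74 in the knockout (edgeR adjusted p = 4.1e-09) and by 0.34 in the parent (edgeR adjusted p = 0.00011), and the difference was -0.40 (edgeR adjusted p = 0.0027), not called with all reads of the gene counted. The parent call of SLX4 was lost with the authors' TPM. FAN1, a crosslink nuclease, had values of 0.16 in the knockout and -0.09 in the parent, neither called, while their difference of 0.25 was (edgeR adjusted p = 0.033); that call was lost when any of 5 libraries was left out.

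MUS81, the catalytic subunit of a junction nuclease (hg19 chr11:65624597-65635124), had 39.6, 38.8 and 32.9 CPM in the knockout labelled prexasertib against 44.8, 43.9 and 47.3 CPM labelled DMSO. In the parent it had 34.7, 39.4 and 38.9 CPM labelled prexasertib against 52.5, 60.0 and 58.3 CPM labelled DMSO. It was lower without overlap in both lines, by 0.29 in the knockout (edgeR adjusted p = 0.0056) and 0.60 in the parent (edgeR adjusted p = 1.5e-07). Without the library knockout labelled prexasertib 3 the knockout call was lost. The difference between the lines was 0.31 (edgeR adjusted p = 0.03), a call lost under 7 alternatives. Its partner EME1 was called in the parent at -0.22 (edgeR adjusted p = 0.0032) and not in the knockout at -0.16. The parent call was lost with the authors' TPM. The reads outside LRRC59 gave no call, but they were only 1.07% of the exonic reads of EME1, so they cannot decide. RMI1, which helps the BLM helicase dissolve junctions, had 18.1, 16.3 and 18.6 CPM in the knockout labelled prexasertib, 16.8, 16.2 and 17.5 CPM in the knockout labelled DMSO, 26.7, 12.5 and 14 CPM in the parent labelled prexasertib and 14.9, 12.7 and 12.3 CPM in the parent labelled DMSO. The 26.7 CPM came from the library that stood apart; no comparison of RMI1 in exonic reads was called with it, and without it RMI1 was higher in the knockout than in the parent labelled prexasertib, by 0.42 (edgeR adjusted p = 0.00019). In intronic reads RMI1 was higher in the parent labelled prexasertib than in the parent labelled DMSO, by 0.46 (edgeR adjusted p = 0.0045), or by 0.28 without that library (edgeR adjusted p = 0.025).

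**Figure D3:**
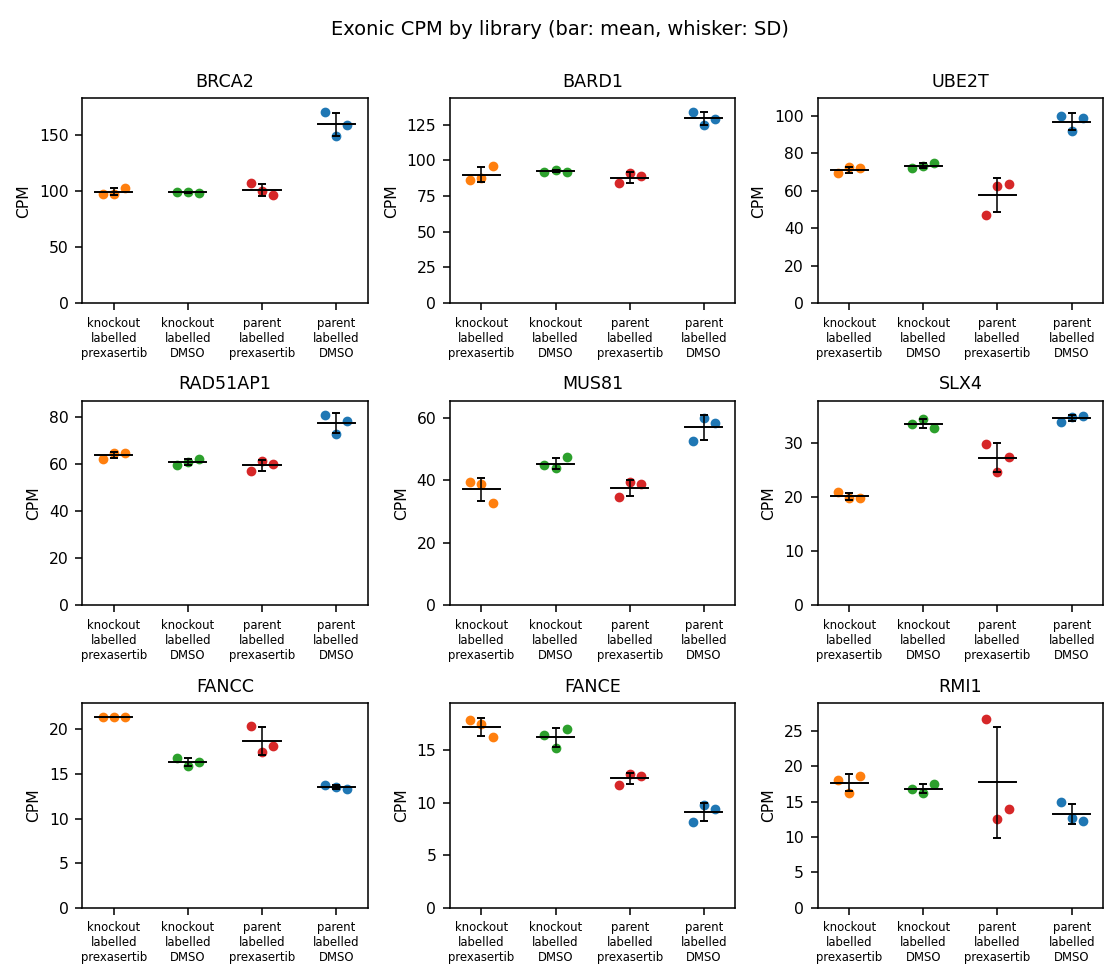
Exonic CPM of 9 members in every library, with each group's mean as a bar and its SD as a whisker; axes start at 0. BRCA2, BARD1, UBE2T and RAD51AP1 are highest in the 3 parent libraries labelled DMSO, SLX4 is lowest in the 3 knockout libraries labelled prexasertib, and RMI1 has 1 parent library labelled prexasertib at 26.7 CPM.

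The third question was how the lines differed under the same label. Among libraries labelled DMSO, 6 members were higher and 11 lower in the knockout than in the parent, beside 19.6% and 20.4% of all genes. All 5 members of the BRCA1 group were among those lower, by 0.14 (BRCA1) to 0.49 (BARD1), although on the authors' TPM scale, pseudocount 1, only BARD1 was called and BRCA1 (0.13), BRCC3 (0.09) and RBBP8 (0.09) were above 0. BRCA2 fell by 0.69 in the knockout (edgeR adjusted p = 8.8e-11), UBE2T by 0.40, FAN1 by 0.35, RAD51AP1 by 0.35 and MUS81 by 0.33; the calls of UBE2T, FAN1, RAD51AP1 and MUS81 were lost with the authors' TPM. FANCE was higher in the knockout by 0.83 (edgeR adjusted p = 3.9e-09), at 16.2 ± 0.906 CPM in the knockout and 9.11 ± 0.834 CPM in the parent (SD, n = 3 each), and FANCC, FANCD2, FANCG, FANCI and RAD50 were higher by 0.17 to 0.28. The call of RAD50 was lost under 9 alternatives, that of BRCC3 under 4 and that of FANCD2 without knockout labelled DMSO 2. That of BRCA1 was lost without a low-count filter and without knockout labelled DMSO 3. EXO1 was also called lower in the knockout, but its value was above 0 with the authors' TPM.

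Among libraries labelled prexasertib, 9 members were higher and 3 lower in the knockout, beside 14.5% and 13.5% of all genes, or 12 and 3 without the library that stood apart. FANCE was higher by 0.48 (edgeR adjusted p = 4.6e-05), FANCI by 0.34 (edgeR adjusted p = 7e-06), RAD54B by 0.33, UBE2T by 0.31 (0.18 without the library that stood apart), and RAD51C and MRE11A by 0.28 each. The call of RAD54B was lost with all reads of the gene counted. Those of FANCC (0.20) and RBBP8 (0.16) were lost under 8 and 3 alternatives. SLX4 fell by 0.44 in the knockout (edgeR adjusted p = 1e-05), BRCC3 by 0.21 and XRCC3 by 0.22; the call of BRCC3 was lost under 6 alternatives and that of XRCC3 under 4. BARD1, BRCA2, BRIP1 and MUS81, all lower in the knockout among libraries labelled DMSO, had values between -0.03 and 0.03 here, none of them called. The line splits depended on scaling: the authors' TPM, pseudocount 1, gave 17 higher and 2 lower for the label DMSO and 20 and 1 for the label prexasertib, where the medians of all genes were 0.15 and 0.08. The members' medians exceeded these by 0.04 and 0.13. With a pseudocount of 0.1 the members' median minus that of all genes was -0.03 for the label DMSO and 0.11 for the label prexasertib.

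Intronic reads, which can come from unspliced RNA, gave a second readout of 34 members, with RMI2 and without FANCF, which has no intron. In knockout cells 8 were higher and 2 lower in libraries labelled prexasertib, beside 5.83% and 6.15% of 19852 genes tested, and in parent cells 19 were called, 10 higher and 9 lower, beside 30.8% of genes called in either direction. The knockout counts were 5 and 0 without knockout labelled prexasertib 1 or 3, and 3 and 1 without knockout labelled DMSO 3. In parent cells 7 of the 10 members lower in exonic reads were also lower in intronic reads: BRCA2, EME1, FANCM, MUS81, RAD51AP1, SLX4 and UBE2T. The share of all genes lower in both readouts was not counted, so this count cannot be read as particular to the members. The intronic calls of EME1 and MUS81 were lost when any of 3 and any of 4 libraries was left out. BARD1 (0.02), BRIP1 (0.04) and BRCA1 (-0.08) were not called in intronic reads there. XRCC2 was higher in introns in both lines (0.37 in the knockout, edgeR adjusted p = 0.0057, and 0.55 in the parent, edgeR adjusted p = 5.3e-05) without a call in exonic reads; the knockout call was lost without knockout labelled DMSO 3.

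Differences between the lines were called above 0 for 6 members in intronic reads and below 0 for 0, beside 5.82% and 4.02% of all genes; both readouts come from the same libraries. UBE2T had 33.5, 32.0 and 37.9 intronic CPM in the knockout labelled prexasertib and 33.5, 27.5 and 29.6 labelled DMSO, against 25.4, 31.6 and 32.7 in the parent labelled prexasertib and 56.2, 51.5 and 55.5 labelled DMSO. The parent labelled DMSO stood alone above the rest, and the difference was 1.05 (edgeR adjusted p = 6.5e-05). RAD51AP1 rose by 0.31 in the knockout (edgeR adjusted p = 0.0051) and fell by 0.34 in the parent (edgeR adjusted p = 0.00071), a difference of 0.65 in intronic reads. BRCA1 (0.34), BRCA2 (0.41) and FAN1 (0.43) also differed in both readouts, the intronic call of BRCA1 being lost without a low-count filter and when any of 7 libraries was left out. SLX4 had an uncalled intronic difference of 0.36 where its exonic one was -0.40. RMI2, which pairs with RMI1, differed by 0.86 in intronic reads, but its intron region holds 7 other features, SOCS1 among them, and its 154 to 398 intronic reads per library cannot be assigned to it.

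The share of a member's reads that lay in introns was higher with labelled prexasertib than with labelled DMSO for 16 of 34 members in knockout cells and for 32 of 34 in parent cells, with median differences of -0.29 and 3.93 percentage points. The library that stood apart did so by this measure, so the parent values were also computed without it, a choice made after seeing the data. The share was then higher for 27 of 34 members, with a median difference of 2.5 points. How many of all genes had a higher share was not counted, so these counts cannot be read as particular to the members. BARD1 had 46.3 ± 5.47% in the parent labelled prexasertib and 33.2 ± 2.74% in the parent labelled DMSO (n = 3 each, SD; p = 0.1 in a two-sided exact permutation test, the smallest that 3 against 3 allow), and its parent mean labelled prexasertib was 43.1% without that library. Over all genes the share moved too, with 27.5 ± 2.39% in the parent labelled prexasertib and 24.6 ± 0.862% labelled DMSO (SD, n = 3 each), a difference of 2.94 points, or 1.57 without that library, and its part in the members' shares was not tested. Across 33 members, which share their libraries, Spearman's rho between exonic and intronic log2 fold changes was 0.65 in knockout cells and 0.81 in parent cells.

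**Figure D4:**
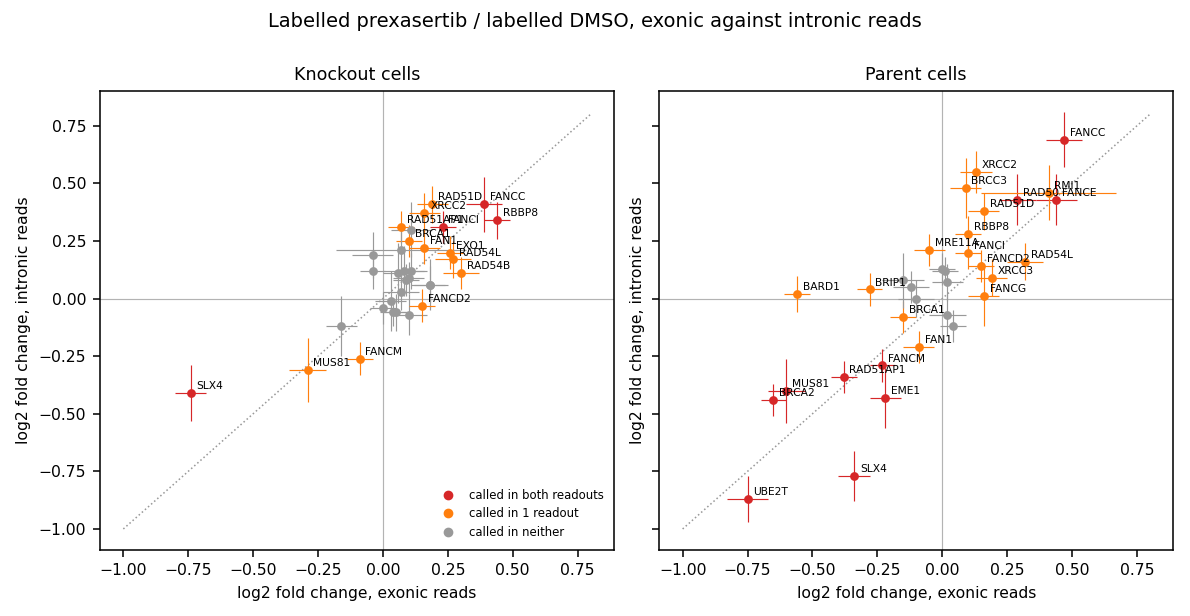
Log2 fold change in exonic reads (x) against intronic reads (y), labelled prexasertib over labelled DMSO, for 33 members in knockout and parent cells; whiskers are standard errors, red points were called in both readouts, orange in 1 and grey in neither, and the dotted line marks equality. SLX4 is lowest in knockout cells, and UBE2T is lowest in parent cells at -0.75 and -0.87.

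Of 44 further recombination and Fanconi genes, 6 were higher and 11 lower in the knockout labelled prexasertib, beside 6.11% and 6.83% of all genes. In the parent 7 were higher and 21 lower, beside 18.2% and 18.2% of all genes. The medians were 0.01 in the knockout and -0.14 in the parent, where those of all genes were 0.00 and 0.04. With the authors' TPM, pseudocount 1, the counts were 6 and 3 in the knockout and 14 and 13 in the parent. RFWD3, a ubiquitin ligase that acts on RPA, fell by 0.67 in the parent (edgeR adjusted p = 4.5e-12), at 177 ± 0.503 CPM labelled prexasertib and 281 ± 0.988 CPM labelled DMSO (SD, n = 3 each), and had a value of 0.00 in the knockout. The helicase HELQ and the resolvase GEN1 fell in both lines, by 0.26 and 0.32 in the knockout and by 0.95 and 0.84 in the parent. TOP3A (0.29), the resection nuclease DNA2 (0.27) and MMS22L (0.29) were higher in the knockout. Responses differed between the lines for 15 of the 44 above 0 and 2 below, beside 9.53% and 7.32% of all genes, or 6 and 6 with the authors' TPM.

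Of 18 end-joining genes, 2 were higher and 0 lower in the knockout, beside 6.11% and 6.83% of all genes. In the parent 7 were higher and 4 lower (10 and 1 with the authors' TPM), beside 18.2% and 18.2% of all genes. PARP1 rose by 0.63 in the parent (edgeR adjusted p = 1.5e-10) and PRKDC, the DNA-dependent kinase, by 0.51; FAM35A, a shieldin subunit, rose by 0.25 there, and the nuclease gene DCLRE1C fell by 0.57. RIF1 rose in the knockout (0.23) and PAXIP1 in both lines (0.21 in the knockout and 0.26 in the parent). Of 26 mismatch and excision repair genes, 5 were higher and 3 lower in the knockout, beside the same shares of all genes as above. In the parent 9 were higher and 10 lower (10 and 7 with the authors' TPM), again beside 18.2% and 18.2%. There, NEIL3, a DNA glycosylase, fell by 0.76 and ERCC5, an excision repair nuclease, by 0.54. NEIL1, another glycosylase, fell in both lines (by 0.44 in the knockout and 0.45 in the parent).

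Cell-cycle genes moved with the labels. All 26 genes of G2 and mitosis were lower in libraries labelled prexasertib in both lines, with medians of -0.89 in the knockout and -1.28 in the parent, and these counts were the same with the authors' TPM. AURKA, a mitotic kinase, fell by 1.36 in the knockout and fell by 2.31 in the parent, and CENPE, a kinetochore motor, had -1.35 and -1.96. CDC25C had -1.01 in the knockout and -2.10 in the parent, PLK1 -1.65 and -1.73, and CDC20 -1.53 and -1.72, each called. Of 27 G1/S genes, 12 were higher and 0 lower in the knockout and 17 were higher and 0 lower in the parent, with CCNE2 (0.83 in the knockout and 0.82 in the parent), RRM2 (0.61 and 0.53) and SLBP (0.35 and 0.50) as examples. With the authors' TPM, pseudocount 1, 14 of the 27 were higher in the knockout and 24 in the parent, and 0 were lower in either. The response of 20 of the 26 G2 and mitosis genes was above 0 in the difference between the lines and of 0 below, with a median of 0.43. Their part in the members' changes was not tested.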

How the data were processed

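RNA-seq libraries of 12 samples, 3 per group, were analysed from gene tables of exonic and intronic read counts and TPM deposited by the authors. The submitters' processing notes name the build hg19 and, with no roles, the tools STAR 2.5.4a, Picard 2.9.2, Trimmomatic 0.39 and Trim Galore 0.6.2; the counter, annotation and strand setting are not given in the sources used here. Large deposited counts keep 6 digits, which limits their precision, and 36 Y copies of pseudoautosomal genes were left out. Genes absent from a library's table were set to 0. File coordinates were raised by 1 to count from 1. No library was left out of the fits reported first.

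Counts were fitted with edgeR 4.0.16 in R 4.3.3 (filterByExpr with a minimum count of 10, TMM scaling, robust quasi-likelihood F tests, 1 mean per group over all 12 libraries), with Benjamini-Hochberg adjustment over all genes tested. Called means an adjusted p of at most 0.05, CPM are scaled by TMM, and 95% intervals use the normal quantile of the standard error. Alternatives used DESeq2 1.42.0, limma 3.58.1 on log2(TPM + 1) and log2(TPM + 0.1), other read classes, no filter, only the compared groups, and each library left out, which for intronic reads was chosen after seeing the data; fold changes on the TPM scale understate those of low genes. Counts simulated from the fitted means and spread, with known changes in the parent labelled prexasertib, were also fitted. They share the assumptions of the fit and cannot speak to the library that stood apart or to the labels. Depth per library was 47887791 to 77548202 exonic reads.

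All 35 members are named, and of each other list the 3 genes with the smallest p in each line's treatment comparison. Some genes that this rule names are not reported here. Members, lists and tests were chosen with earlier results of these data known. Deviations of libraries sharing a replicate number correlated at -0.094 to 0.151 between groups, so the numbers were not taken as pairs.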

Additional observations from a re-analysis of the deposited data

Results flagged for a closer look

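The results here are members whose response to the labelled treatment differed between the lines, tested as the knockout's log2 response minus the parent's with edgeR's quasi-likelihood test. In exonic reads the difference was above 0 for UBE2T (0.71), BRCA2 (0.66), BARD1 (0.52), RAD51AP1 (0.45), RAD54B (0.42), BRIP1 (0.36), RBBP8 (0.34), MUS81 (0.31), EXO1 (0.26), BRCA1 (0.25) and FAN1 (0.25). It was below 0 for SLX4 (-0.40) and FANCE (-0.36). With the authors' TPM, the calls of BARD1, BRCA2, RAD51AP1, UBE2T, FANCE and SLX4 were kept. The exonic call of FANCE was nevertheless lost under 8 other alternatives, that of FAN1 under 8 and that of MUS81 under 7. Those of SLX4 and RAD54B were lost with all reads of the gene counted. In intronic reads the difference was above 0 for UBE2T (1.05), RMI2 (0.86), RAD51AP1 (0.65), FAN1 (0.43), BRCA2 (0.41) and BRCA1 (0.34); the call of BRCA1 was lost under 8 alternatives. All of these change sign if the library names in the titles hold in place of the file attachments.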

How the results depend on the processing

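Of 104 calls of members, 52 were lost under at least 1 alternative run, where a change of sign was not counted as a loss. Between the lines labelled DMSO, the calls of RBBP8 and EXO1 took the other sign with the authors' TPM and are not among the 52. Scaling moved most: with the authors' TPM, under both pseudocounts, the parent had 15 higher and 5 lower members (median 0.14 with pseudocount 1 and 0.15 with 0.1), the knockout against the parent labelled prexasertib 20 and 1 (0.21 and 0.23), labelled DMSO 17 and 2 (0.20 and 0.22), and the difference of responses 4 higher (median -0.02). The medians of all genes moved as well, to 0.09 and 0.16 in the parent. They were 0.08 and 0.12 between the lines labelled prexasertib, 0.15 and 0.25 labelled DMSO, and -0.08 and -0.14 for the difference of responses. Between the lines labelled prexasertib, the TPM values of EME1 (0.14 and 0.15) and FANCA (0.14 and 0.15) took the other sign, as did FANCL with all reads (-0.25) and RMI1 without parent labelled prexasertib 1 (0.42; the lowest value with 1 library left out was -0.20). Labelled DMSO, TPM gave the other sign for BRCA1 (0.13 and 0.14), BRCC3 (0.09 and 0.10), EME1 (0.20 and 0.21), EXO1 (0.07 and 0.07), FANCA (0.22 and 0.24), RAD51D (0.24 and 0.26), RAD54B (0.17 and 0.19), RBBP8 (0.09 and 0.10) and SLX4 (0.19 and 0.23), and reads outside other genes did for FANCA (0.16). Sign changes between values of which neither was called are not counted. Fitting only the compared groups gave 4 higher in the parent and 14 in the knockout. All reads of the gene left 0 members with a response difference below 0. Intronic reads without a filter gave a parent median of 0.11, and 1 member below 0 with a median of -0.02 for the response difference. The E2F core was before the start for 10 members. Leaving out 1 library at a time gave, in the knockout, 6 to 8 higher and 1 to 3 lower members (median 0.08 to 0.11), and in the parent 4 to 10 and 10 to 12 (-0.04 to 0.01). It gave 7 to 12 and 2 to 3 between the lines labelled prexasertib (0.05 to 0.09), 4 to 6 and 9 to 12 labelled DMSO (-0.09 to -0.06), and 9 to 12 and 1 to 2 for the response difference (0.10 to 0.16). In intronic reads the ranges were 3 to 7 and 0 to 2 in the knockout (0.08 to 0.12), 7 to 11 and 6 to 9 in the parent (0.04 to 0.10), and 5 to 6 and 0 to 1 for the difference (0.02 to 0.05). The cause of these shifts was not tested, and the shares of all genes called under the alternatives were not counted. A replicate block removed 1 call, that of FANCF in the knockout, and changed no other call of a member.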
